A study of Mus musculus with 2040 samples.

Results

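Slc6a11, Slc6a13, Abat, Maob and Aldh5a1 are genes of GABA uptake and breakdown. These 5 genes were chosen by name from the 32245 gene columns of a table of single cells scaled to a fixed sum (CPM, reads of a gene scaled to 1000000 reads of its cell), and their levels were described in astrocytes by tissue, in oligodendrocytes of the visual cortex and in neurons, with the mouse as the replicate. Each library was 1 cell, flow sorted for the reporter SYFP2 from a C57Bl/6J mouse that had received 1 adeno-associated virus (AAV), in which the named enhancer or promoter drives the reporter. The 2040 cells came from 47 mice and 30 vectors, and all groups share the strain, the reporter and the sort for it. A cell was therefore profiled only where its vector was active. Sex and age are not given in the sources used here.

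The tissues were VISp (primary visual cortex, 1785 cells of 41 mice), MB/HB (midbrain and hindbrain, 4 mice with 32 to 41 astrocytes each) and CBX (cerebellar cortex, 81 cells of 2 mice). VISp astrocytes were measured in 19 mice given 1 of 12 vectors: 3xCore2(390m), GFAP_promoter, ProB12, eHGT_373m, eHGT_374m, eHGT_376h, eHGT_380h, eHGT_385m, eHGT_386m, eHGT_387m, eHGT_390h or eHGT_390m. MB/HB astrocytes came from 2 mice given eHGT_381h and 2 given MGT_E160m, and CBX astrocytes from 2 mice given eHGT_375m. VISp oligodendrocytes were measured in 22 mice given 1 of 15 vectors: MBP_promoter, eHGT_361h, eHGT_391h, eHGT_395h, eHGT_396h, eHGT_396m, eHGT_397m, eHGT_400h, eHGT_400m, eHGT_401h, eHGT_403h, eHGT_405m, eHGT_409h, eHGT_410m or eHGT_641m. VISp neurons reached 10 cells in 1 mouse of eHGT_374m and 2 of MBP_promoter. With 0 vectors used in more than 1 tissue, tissue and vector cannot be told apart.

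GABA is the main inhibitory transmitter of the brain, and its signal ends when carriers take it back into neurons and astrocytes. Slc6a11 encodes a GABA carrier known from astrocytes, and Slc6a13 a related carrier known mainly from the brain's coverings. Inside the cell, the mitochondrial transaminase encoded by Abat turns GABA into succinic semialdehyde, and the dehydrogenase encoded by Aldh5a1 oxidises that to succinate. Maob encodes monoamine oxidase B of the outer mitochondrial membrane. It oxidises amines and also acts in a route by which astrocytes can make GABA from putrescine.

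On GRCm38 (GENCODE vM21), Slc6a11 lies at chr6:114131241-114249952 on the plus strand. Slc6a13 lies at chr6:121300227-121337733 (plus), Abat at chr16:8513429-8621568 (plus), Maob at chrX:16709282-16817366 (minus) and Aldh5a1 at chr13:24907579-24937661 (minus). All 5 are protein-coding genes. Exons of Aldh5a1 overlap those of 4932702P03Rik and 9330162012Rik on the other strand, and no source used here says that the counting used strand, so reads in those overlaps cannot be told apart. The RefSeq promoter table (GRCm38.p6) holds 3 of the 5 members, Slc6a11, Slc6a13 and Aldh5a1. The 250 bases before the start are printed for Slc6a11, the member that differed most between tissues, at chr6:114130991-114131240 (plus strand). They are printed also for Aldh5a1, the last enzyme of the route, at chr13:24937662-24937911 (minus strand). Capitals mark the GC box GGGCGG on either strand.
Slc6a11: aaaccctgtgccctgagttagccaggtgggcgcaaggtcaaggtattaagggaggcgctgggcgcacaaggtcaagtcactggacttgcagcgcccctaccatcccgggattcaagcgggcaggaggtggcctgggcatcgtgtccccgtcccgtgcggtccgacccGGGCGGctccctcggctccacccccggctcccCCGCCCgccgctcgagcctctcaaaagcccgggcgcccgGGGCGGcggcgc
Aldh5a1: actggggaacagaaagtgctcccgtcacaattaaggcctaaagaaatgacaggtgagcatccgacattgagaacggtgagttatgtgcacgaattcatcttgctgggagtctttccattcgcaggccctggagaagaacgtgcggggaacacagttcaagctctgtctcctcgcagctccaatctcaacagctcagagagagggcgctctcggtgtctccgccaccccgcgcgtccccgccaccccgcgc
The Slc6a11 window is 71.2% G and C with 25 CG pairs and holds 3 GC boxes, and the Aldh5a1 window is 57.2% G and C with 17 CG pairs and holds 0. Of all 32817 windows of this length in the table, 32.72% hold a GC box, and the median is 52.4% G and C. The short NFI motif TTGGC, on either strand, is in neither window and in 41.49% of all windows. The SOX core ACAAT on either strand is in 1 place in the Aldh5a1 window, in none in the Slc6a11 window, and in 27.67% of all windows. Each window held matches of only 1 of the 3 motifs, so matches of different motifs could not overlap. Such matches describe letters and do not show binding.

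Cells were read to a median depth of 434102 reads, with a range of 57873 to 1455022, and the medians of mice ran from 313799 to 672363. Clusters made without the GABA genes were named by marker genes, which gave 968 astrocyte-like, 949 oligodendrocyte-like and 99 neuron-like cells; 24 cells stayed unnamed. Names rest on the difference of mean log2 values. By the ratio of mean CPM, clusters 1, 4, 5 and 9 held more markers of another list than of their own among their 10 leading genes and stayed unnamed, so that 18.77% of 2040 cells were astrocyte-like and 35.39% unnamed; levels are therefore also given by cluster number. The summed level of 12 astrocyte markers was 29079 to 37408 CPM in VISp astrocyte-like profiles, 29695 to 34958 in MB/HB and 36711 to 37818 in CBX. That of 12 oligodendrocyte markers was 68394 to 92493 CPM in oligodendrocyte-like profiles, and that of 12 neuron markers was 14941 to 19495 CPM in VISp neuron-like profiles. A profile is the mean CPM over the cells of 1 class in 1 mouse with at least 10 such cells. There were 51 profiles, and 4 mice gave profiles of 2 classes. Of the 5 members, 4 passed the filter of the test (1 CPM or more in 2 or more profiles), and Slc6a13 did not.

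In astrocyte-like cells, Slc6a11 differed between all 3 tissues, highest in MB/HB and lowest in CBX. Maob was highest in VISp. Abat and Aldh5a1, the enzymes that break GABA down, changed less against VISp than Slc6a11 and Maob did. They passed the test only between CBX and MB/HB. Slc6a13 was near 0 in every tissue.

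The mean Slc6a11 level in VISp astrocyte-like cells was 101.4 CPM in the lowest of 19 mice, 217.7 in the median mouse and 411.97 in the highest. In MB/HB it was 1186 and 465.8 CPM in the eHGT_381h mice and 819 and 723.3 CPM in the MGT_E160m mice, and in CBX it was 17.5 and 5.46 CPM. Every MB/HB mouse was above every VISp mouse, and both CBX mice were below all others. Slc6a11 was 3.31-fold higher in MB/HB than in VISp, a log2 change of 1.73 with a standard error (SE) of 0.30 and an adjusted p of 9.53e-05 (limma on log2(mean CPM + 1), Benjamini-Hochberg over all genes tested). The change was 1.75 with the MGT_E160m mice alone and 1.70 with the eHGT_381h mice alone. In CBX the level fell by 4.39 on the log2 scale against VISp (SE 0.41, adjusted p = 1.21e-09) and by 6.12 against MB/HB (SE 0.48, adjusted p = 4.14e-11). These changes were -3.63 and -5.36 without CBX MouseID-651221, and -5.15 and -6.87 without MouseID-614198. With voom on summed reads the first of these had an adjusted p of 0.0603. On plates of the prefix AB alone, which hold all MB/HB and CBX mice, the 3 changes were 1.76, -4.36 and -6.12; plates of the prefix SM hold 3 VISp profiles of astrocyte-like cells and no other tissue's.

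**Figure D1:**
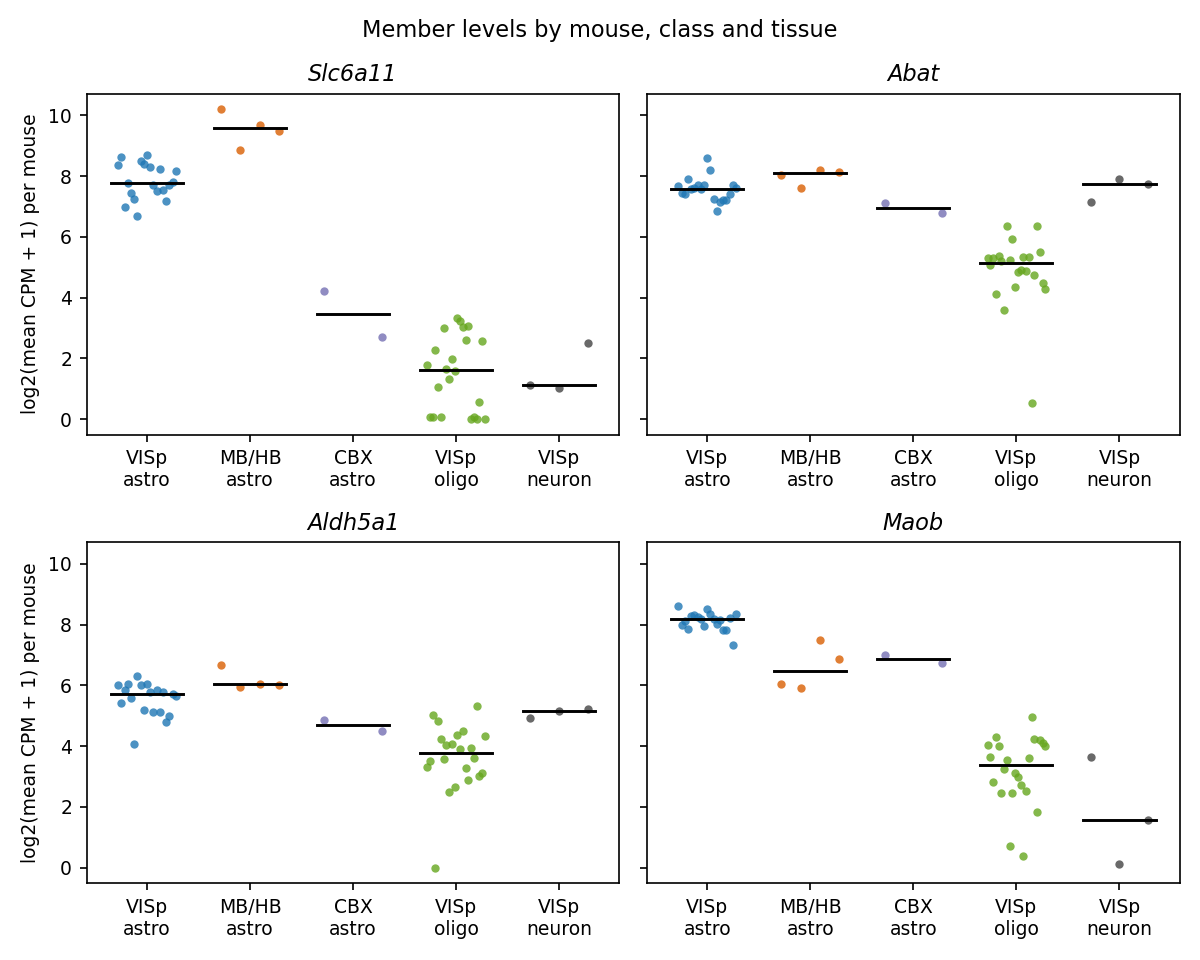
Levels of Slc6a11, Abat, Aldh5a1 and Maob as log2(mean CPM + 1), with 1 point per mouse profile of at least 10 cells and a line at the group's median, for the astrocyte-like cells of 3 tissues and the oligodendrocyte-like and neuron-like cells of VISp. In CPM, Slc6a11 runs from 5.46 in a CBX mouse to 1186 in an MB/HB mouse among astrocyte-like profiles, while Abat stays between 109.7 and 385.1 CPM.

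Maob, the amine oxidase, had the reverse order between MB/HB and VISp. Its mean level was 160.3 CPM in the lowest VISp mouse, 287.9 in the median and 392.5 in the highest. In MB/HB it was 64.8 and 59.95 CPM in the eHGT_381h mice and 179.5 and 117.3 CPM in the MGT_E160m mice, so that 1 MB/HB mouse lay within the VISp range. CBX mice had 127.6 and 106.4 CPM, below every VISp mouse. Maob was lower in MB/HB than in VISp by a log2 change of -1.54 (SE 0.21, limma adjusted p = 1.36e-06) and lower in CBX than in VISp by -1.25 (SE 0.28, adjusted p = 0.0017). The MB/HB change was -2.14 with the eHGT_381h mice alone and -0.94 with the MGT_E160m mice alone. The CBX change was -1.12 without CBX MouseID-651221, with an adjusted p of 0.101, and it also missed the threshold with log2(CPM + 1) averaged over cells (0.0556) and in 1 fit over all tissues and classes (0.254). CBX and MB/HB differed by 0.29 (95% interval -0.37 to 0.95, adjusted p = 0.694).

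Abat, the GABA transaminase, was present in every astrocyte-like profile. Its mean level in VISp was 114.5 CPM in the lowest mouse, 192.2 in the median and 385.1 in the highest. MB/HB mice had 262.4 and 194.9 CPM (eHGT_381h) and 295.4 and 280.6 CPM (MGT_E160m), all within the VISp range, and CBX mice had 138.8 and 109.7 CPM, of which the lower lay just under that range. Against VISp, the log2 change was 0.43 in MB/HB (95% interval 0.01 to 0.84, adjusted p = 0.186) and -0.61 in CBX (-1.17 to -0.05, adjusted p = 0.184), neither past the limma threshold. Between CBX and MB/HB the level fell by 1.04 (SE 0.32, adjusted p = 0.0353).

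Aldh5a1, the dehydrogenase that completes the route, was 15.96 CPM in the lowest VISp mouse, 51.7 in the median and 78.5 in the highest. MB/HB mice had 100.9 and 61.4 CPM (eHGT_381h) and 65.6 and 63.3 CPM (MGT_E160m), and CBX mice had 28.2 and 21.7 CPM. The MB/HB mouse at 100.9 CPM was above all VISp mice, and the other 5 MB/HB and CBX mice lay within the VISp range. The log2 change against VISp was 0.63 in MB/HB (95% interval 0.03 to 1.23, adjusted p = 0.174) and -0.86 in CBX (-1.66 to -0.05, adjusted p = 0.2). Between CBX and MB/HB it fell by 1.49 (SE 0.46, limma adjusted p = 0.0367). Like that of Abat, this call did not hold in 11 of 44 alternatives, among them the AB plates alone (adjusted p of 0.0509 for Aldh5a1 and 0.0511 for Abat) and leaving out either CBX mouse. Aldh5a1 was also not called with the MB/HB mice of either vector alone (0.12 and 0.066), nor Abat with those of eHGT_381h (0.185).

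The members' counts stand beside those of all genes tested. Between MB/HB and VISp, 1 of 4 members was higher and 1 lower, where 12.2% of 2753 genes were called (6.14% higher, 6.07% lower). Between CBX and VISp, 2 of 4 were lower, where 11.8% were called (5.56% higher, 6.21% lower). Between CBX and MB/HB, 3 of 4 were lower, where 9.04% were called (3.96% higher, 5.09% lower). The members' median log2 changes were 0.53, -1.05 and -1.27, and those of all genes tested were -0.04, -0.06 and 0. These 3 comparisons share their mice in pairs and are not independent of each other.

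Markers of other cells also differed between the tissues' astrocyte-like profiles. The summed level of 12 oligodendrocyte markers was 171.1 to 1311 CPM in VISp, 839 to 6262 in MB/HB and 1935 to 2224 in CBX. That of 8 leptomeningeal markers was 0.796 to 25.7 CPM in VISp, 30.1 to 86.8 in MB/HB and 49.2 to 66.2 in CBX, with Lum, Col3a1 and Ogn at 0 in CBX. That of 7 precursor markers was 5.37 to 50.4 CPM in VISp, 62.95 to 206.6 in MB/HB and 39.4 to 40.8 in CBX, with Gpr17 at 0 in all 3 tissues. MB/HB MouseID-651222 stood apart with 1214 CPM over 9 endothelial markers and 1500 CPM over 8 mural markers. Without the cells in which at least 50% of another list's markers were detected, Slc6a11 in MB/HB against VISp changed by 1.76 and Maob by -2.07, both past the limma threshold.

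Shares of cells with a read followed the levels for Slc6a11. After every cell was thinned to 50000 reads, Slc6a11 was detected in 88.2% of 739 VISp astrocyte-like cells, 94.6% in MB/HB and 14.8% of 81 in CBX (exact 95% interval 7.90 to 24.4). Unthinned, the shares were 91.9%, 95.9% and 27.2%, at medians of 430987, 393854 and 364600 reads over mice. In VISp oligodendrocyte-like cells, which served as the background, the share was 4.14% thinned (2.96 to 5.62) and 7.12% unthinned, at 429289 reads. By mouse, the thinned shares were 20.9% and 7.89% in CBX and ran from 0 to 13.04% in oligodendrocyte-like profiles. The lower CBX mouse thus lay within the background, as did its mean level of 5.46 CPM (0 to 9.004 CPM in oligodendrocyte-like profiles).

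Maob was detected after thinning in 64.5% of VISp astrocyte-like cells, 32.4% in MB/HB and 53.1% in CBX. Abat was detected in 64.7%, 72.3% and 66.7%, and Aldh5a1 in 29.2%, 29.7% and 33.3%. The Aldh5a1 shares were thus close to each other while its mean level was lower in CBX than in MB/HB. Members per single cell were counted without thinning, so these counts also depend on depth and do not compare with the thinned shares. Within single VISp astrocyte-like cells, all of Slc6a11, Abat, Maob and Aldh5a1 had a read in 18.8% of 739 cells, 3 of the 4 in 41.9% and none in 1.76%. Also unthinned, all 4 had a read in 9.46% of MB/HB cells and in 7 of 81 CBX cells (8.64%).

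**Figure D2:**
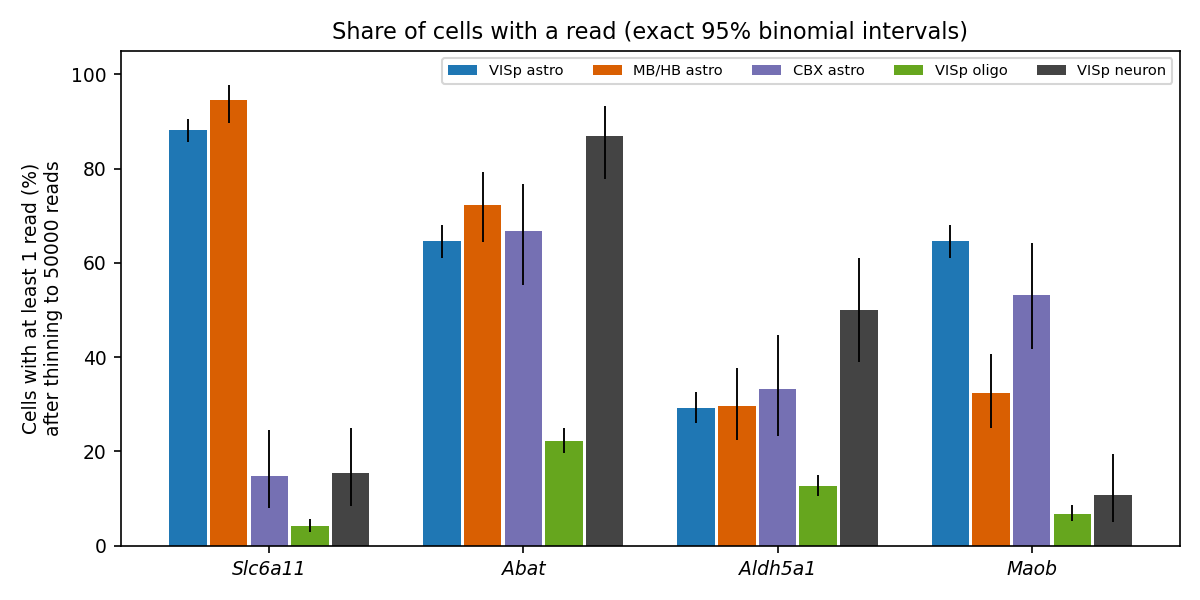
Percent of cells with at least 1 read of each member after thinning to 50000 reads, by class and tissue, with exact 95% binomial intervals that cover counting error only. Slc6a11 falls from 94.6% in MB/HB to 14.8% in CBX astrocyte-like cells, whereas Abat stays between 64.7% and 72.3% in the 3 tissues.

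Levels were compared between genes per kilobase of exon, which assumes that reads were counted over exons. In VISp astrocyte-like cells the median over mice was 103.2 CPM per kb for Maob, 43.1 for Slc6a11, 24.8 for Abat and 9.15 for Aldh5a1. The ranges over mice of neighbours in this order overlapped, except that every mouse's Abat (14.8 to 49.7) was above every mouse's Aldh5a1 (2.83 to 13.9). Such ranges ignore that the genes share their mice, and the order within each VISp mouse was not compared. In MB/HB the order among the members was Slc6a11 (152.7), Abat (35.05), Maob (32.7) and Aldh5a1 (11.4), and in CBX it was Maob (41.9), Abat (16.04), Aldh5a1 (4.42) and Slc6a11 (2.27). Slc6a11 was thus first among the 4 members in MB/HB and last in CBX. The ranges of Abat and Maob over the MB/HB mice overlapped (25.2 to 38.1 and 21.5 to 64.4 CPM per kb). Their order was not the same in all mice. The mouse lowest in both genes (MouseID-651222, eHGT_381h) had more Abat than Maob per kb. The mouse highest in both (MouseID-651228, MGT_E160m) had more Maob. In CBX the values of neighbouring members did not overlap between the 2 mice.

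Slc6a13 was read in 11 of the 2040 cells. These were 2 VISp and 1 MB/HB astrocyte-like cells, 5 oligodendrocyte-like cells and 3 VISp neuron-like cells, and 9 of the 11 held 1 or 2 reads. In CBX it was read in 0 of 81 astrocyte-like cells, which allows a share of up to 3.7%. The other 2 cells were glutamatergic neuron-like cells of 1 mouse, MouseID-614201 (eHGT_374m), with 13 and 22 reads (38.6 and 72.1 CPM), and neither held a leptomeningeal marker. Slc6a12, the gene that follows Slc6a13 on the chromosome and encodes another GABA and betaine carrier, was read in 1 cell.

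VISp oligodendrocyte-like cells had less of all 4 tested members than VISp astrocyte-like cells. Slc6a11 was 2.06 CPM in the median of 22 mice (0 to 9.004), so that every oligodendrocyte-like profile was below every astrocyte-like one. Maob was 9.58 CPM in the median mouse (0.307 to 30.1), also without overlap with the 160.3 to 392.5 CPM of astrocyte-like profiles. Abat was 34.6 CPM in the median mouse (0.460 to 81.3), below the lowest astrocyte-like profile at 114.5 CPM. Aldh5a1 was 12.7 CPM in the median mouse (0 to 39.5) and overlapped the range of astrocyte-like profiles.

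The limma log2 change was -6.32 for Slc6a11 (SE 0.30, adjusted p = 3.62e-24), -4.95 for Maob (SE 0.28, adjusted p = 3.03e-21), -2.70 for Abat (SE 0.26, adjusted p = 9.67e-13) and -1.91 for Aldh5a1 (SE 0.27, adjusted p = 2.14e-08). So 4 of 4 tested members were lower, in a comparison in which 57% of 2889 genes were called (19.3% higher, 37.6% lower). The members' median change was -3.83, and that of all genes was -0.22. On AB plates alone the changes were -6.06, -5.06, -2.79 and -1.81. The summed level of 12 astrocyte markers in oligodendrocyte-like profiles was 210.7 to 1240 CPM, against 29079 to 37408 in astrocyte-like ones, and its part in the low levels of the members there was not tested.

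After thinning, Abat had a read in 22.2% of 941 oligodendrocyte-like cells, Aldh5a1 in 12.6%, Maob in 6.80% and Slc6a11 in 4.14%. Per kilobase, Abat (4.47), Maob (3.43) and Aldh5a1 (2.25) lay close together there, and Slc6a11 (0.409) was lowest. The ranges of these 4 genes over the 22 mice overlapped.

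**Figure D3:**
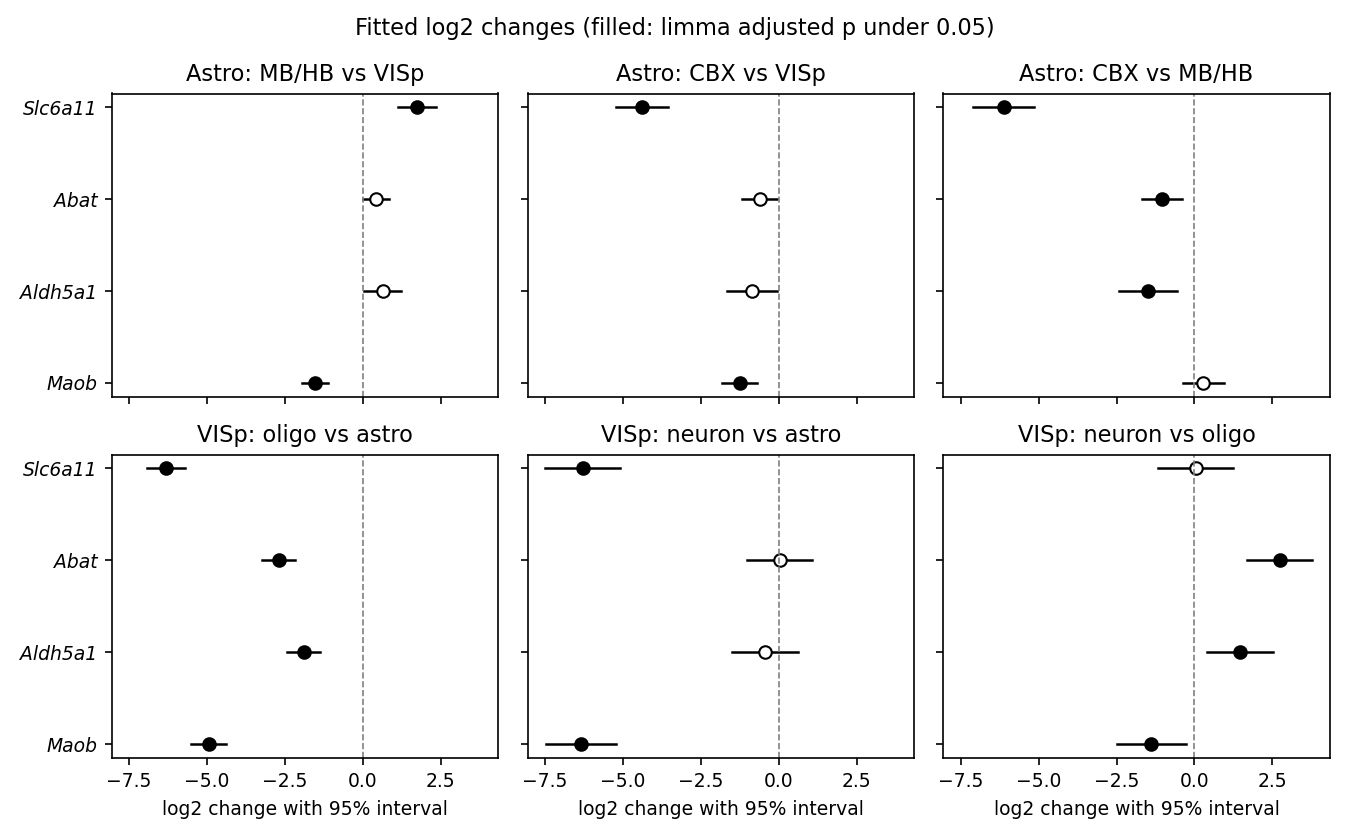
Fitted log2 changes of the 4 tested members with their 95% intervals in the 6 comparisons (limma); filled points have an adjusted p under 0.05. Slc6a11 is past the threshold in all comparisons but the one of neuron-like with oligodendrocyte-like cells, and Abat lies at 0.03 in neuron-like against astrocyte-like cells.

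VISp neuron-like profiles, which held mostly GABAergic cells, had Abat and Aldh5a1 at levels within the range of astrocyte-like cells and little Slc6a11 and Maob. In the 3 mice with at least 10 such cells (MouseID-614201 of eHGT_374m, then MouseID-638254 and MouseID-651227 of MBP_promoter), Abat was 142.7, 237.7 and 213.2 CPM and Aldh5a1 was 29.4, 34.6 and 36.4 CPM. In that order, 7 of 13, 19 of 21 and 26 of 27 of their cells were GABAergic, so the tests on neuron-like cells are mainly of these. Slc6a11 was 1.195, 1.03 and 4.62 CPM, and Maob was 11.6, 0.0981 and 1.99 CPM. All 3 profiles were below every VISp astrocyte-like profile for Slc6a11 and Maob and within their range for Abat and Aldh5a1.

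Against astrocyte-like cells, the log2 change was -6.29 for Slc6a11 (SE 0.60, limma adjusted p = 9.43e-13) and -6.34 for Maob (SE 0.55, adjusted p = 7.02e-14). Abat differed by 0.03 (95% interval -1.02 to 1.08, adjusted p = 0.9752) and Aldh5a1 by -0.44 (-1.51 to 0.62, adjusted p = 0.539). These intervals allow a change of up to about 1 log2 unit either way for Abat, so that equal levels were not shown. With log2(CPM + 1) averaged over cells, Abat was higher by 1.44 (adjusted p = 0.00343) and Aldh5a1 by 1.80 (adjusted p = 2.21e-07); under that setting the median of all genes was 1.59. In the main comparison 2 of 4 members were lower, where 43.6% of 2889 genes were called (26.2% higher, 17.4% lower), and the members' median was -3.37 beside 0.05 for all genes.

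Against oligodendrocyte-like cells, Abat was higher in neuron-like cells by 2.73 (SE 0.52, limma adjusted p = 1.58e-05) and Aldh5a1 by 1.46 (SE 0.52, adjusted p = 0.0198), and Maob was lower by -1.39 (SE 0.55, adjusted p = 0.0363). Slc6a11 differed by 0.04 (95% interval -1.15 to 1.23, adjusted p = 0.99). So 2 of 4 members were higher and 1 lower, where 42.9% of genes were called (30.3% higher, 12.5% lower), and the members' median was 0.75 beside 0.30 for all genes. The Abat call held in all 60 alternatives. The Maob call was lost without MouseID-638254 (-0.48, adjusted p = 0.635), without MouseID-651227 (-1.24, 0.155) and on AB plates alone (-1.25, 0.0885), and that of Aldh5a1 without MouseID-638254 (1.45, 0.074) or MouseID-651227 (1.43, 0.0755). Without cells holding markers of another list, Maob changed by -0.96 (0.275) and Aldh5a1 by 1.403 (0.0618).

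Neuron-like cells were split by transmitter, as GABAergic where Gad1 and Gad2, the GABA-making enzymes, exceeded the vesicular glutamate transporters Slc17a7 and Slc17a6, and as glutamatergic where the reverse held. In VISp, Abat had a read in 61 of 61 GABAergic cells of 11 mice (exact 95% interval 94.1 to 100%) and in 15 of 23 glutamatergic cells of 14 mice (65.2%, 42.7 to 83.6%). Its mean over cells was 238.8 CPM in GABAergic and 35.97 CPM in glutamatergic cells, the latter below the lowest astrocyte-like profile and beside a median of 34.6 CPM in oligodendrocyte-like profiles. Mouse means were 54.7 CPM in the lowest, 219.1 in the median and 452.8 in the highest for GABAergic cells, and 0, 33.4 and 150.8 CPM for glutamatergic cells, so the ranges overlapped. In all 7 of 7 mice with both kinds, the GABAergic mean was higher, but most of these means rest on 1 or 2 cells. In MouseID-614201, the only mouse with more than 2 cells of each kind, Abat was 254.2 CPM over 7 GABAergic cells and 12.6 CPM over 6 glutamatergic cells. No test was made, since most mice gave few neurons.

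Aldh5a1 was 35.4 CPM in GABAergic and 16.8 CPM in glutamatergic cells, with the GABAergic mean higher in 3 of 7 mice and a read in 83.6% and 60.9% of cells. For Aldh5a1 the mice thus gave no common direction. Slc6a11 and Maob were 4.05 and 3.73 CPM in GABAergic cells and 8.34 and 10.3 CPM in glutamatergic cells, within the ranges of oligodendrocyte-like profiles. Leaving out cells with markers of another list left 55 of 61 GABAergic but only 12 of 23 glutamatergic cells, which limits the split. Abat was then 241.4 CPM in GABAergic and 17.9 CPM in glutamatergic cells. Slc6a11 and Maob were then 3.03 and 2.54 CPM in GABAergic and 0.432 and 0 CPM in glutamatergic cells.

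**Figure D4:**
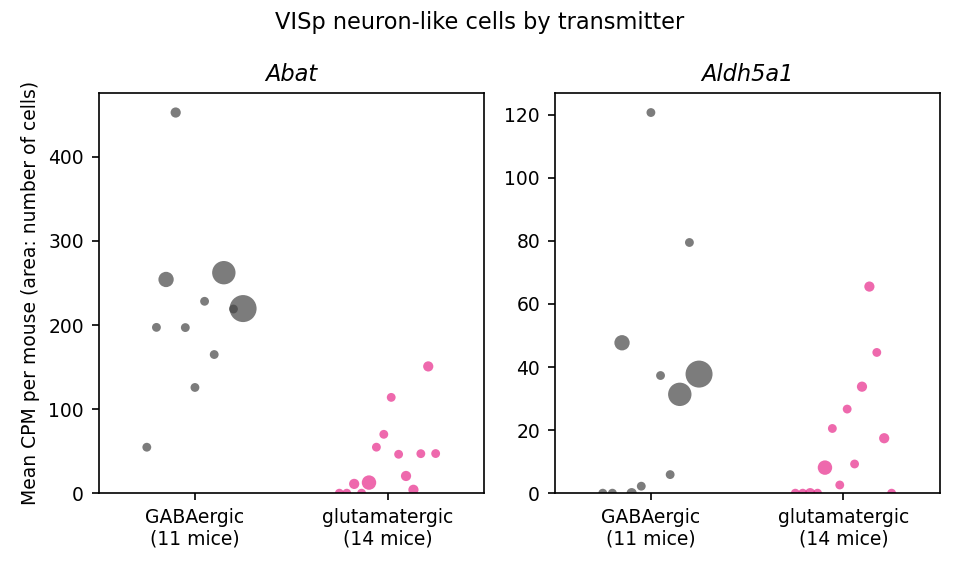
Mean CPM per mouse of Abat and Aldh5a1 in GABAergic and glutamatergic neuron-like cells of VISp; each point is 1 mouse and its area shows the number of cells. Abat lies between 54.7 and 452.8 CPM in GABAergic and between 0 and 150.8 CPM in glutamatergic cells, and the points of Aldh5a1 overlap over most of their range.

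Within a class and tissue, the members were compared among vectors that had at least 2 mice. Among 7 vectors with 14 mice, VISp astrocyte-like cells gave 0 of 4 members past the limma F-test, where 0% of 2480 genes were called and 5.36% had an unadjusted p under 0.05. The highest and lowest vector means differed by 1.15 on the log2 scale for Slc6a11, 0.91 for Abat, 0.68 for Maob and 1.30 for Aldh5a1, each with an adjusted p of 0.949. Without either eHGT_374m mouse, which takes that vector out, the value for Aldh5a1 was 0.59. Among 5 vectors with 12 mice, oligodendrocyte-like cells also gave 0 members, where 0.14% of 2138 genes were called and 6.45% had an unadjusted p under 0.05.

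The widest spread among oligodendrocyte vectors was that of Abat, 3.38 on the log2 scale (unadjusted p = 0.0202, limma adjusted p = 0.66). Without either MBP_promoter mouse that vector left the comparison, and the spread was 1.04. Abat was 0.460 and 18.4 CPM in the MBP_promoter mice, and the vector means were 29.96 CPM for eHGT_410m, 39.5 for eHGT_395h, 54.99 for eHGT_409h and 58.8 for eHGT_641m. In MB/HB astrocyte-like cells, Abat and Maob did not overlap between the mice of MGT_E160m and eHGT_381h, 2 of 4 members, where 27.2% of 2753 genes did not overlap. This is a share of few members beside a common pattern among genes, and no test was made.

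VISp astrocyte-like cells fell mainly into clusters 1 and 3. In 13 mice with at least 5 cells of both, the median log2 difference of cluster 1 from cluster 3 was 0.24 for Slc6a11 (higher in 9 of 13 mice), -0.33 for Abat (higher in 4), -0.22 for Maob (higher in 3) and 0.51 for Aldh5a1 (higher in 8). For each member some mice went the other way. All but 8 MB/HB astrocyte-like cells were in cluster 4 and all but 3 CBX ones in cluster 7, so the tissues were compared across clusters that hold mostly 1 tissue. By cluster number, the median of mice with at least 5 cells was 229.2 CPM of Slc6a11 in cluster 1 and 209.6 in cluster 3 (VISp), 771.1 in cluster 4 (MB/HB) and 11.9 in cluster 7 (CBX). That of Maob was 275.7, 305.3, 90.6 and 115.9 CPM. Cluster 7 also held 6 MB/HB cells of 1 mouse, with 9.28 CPM of Slc6a11. No test was made by cluster.

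The 29 other listed genes of GABA handling were counted by list. Between MB/HB and VISp, where 12.2% of all genes were called, both tested other carriers and both GABA-making enzymes did not pass the test. Of 7 putrescine-route genes, 2 were higher (Maoa and Aldh1a1) and 1 lower (Aldh7a1), 1 of 4 gamma-hydroxybutyrate genes was lower (Adhfe1), and 1 of 12 mitochondrial partners was higher (Sdhc).

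Aldh1a1, an aldehyde dehydrogenase of retinal and other aldehydes, was 194.6 CPM in the median VISp mouse (100.5 to 334.9), 1009 to 1227 in MB/HB and 515.7 to 550.9 in CBX, without overlap. It was higher than in VISp by a log2 change of 2.50 in MB/HB (adjusted p = 9.95e-11, limma) and of 1.47 in CBX (adjusted p = 0.000303). Maoa, the partner of Maob on the outer mitochondrial membrane, was 75.5 CPM in the median VISp mouse (40.1 to 145.4), 95.7 to 320.7 in MB/HB and 255.6 to 345.7 in CBX. It was higher by 1.01 in MB/HB (adjusted p = 0.00667) and by 2.01 in CBX (adjusted p = 8.38e-05), while Maob was lower in both. The MB/HB change of Maoa missed the threshold without MouseID-651222 (0.65), the mouse with the high endothelial and mural marker sums, with the MGT_E160m mice alone (0.72) and with log2 values averaged over cells (0.61).

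Adhfe1, which encodes the mitochondrial enzyme that oxidises gamma-hydroxybutyrate to succinic semialdehyde, was 303.7 CPM in the median VISp mouse (235.9 to 376.3), 160.1 to 191.4 in MB/HB and 35.9 to 75.7 in CBX, again without overlap. Against VISp it changed by -0.77 in MB/HB (adjusted p = 0.000385, limma) and by -2.49 in CBX (adjusted p = 5.95e-11), and by -1.71 between CBX and MB/HB (adjusted p = 3.71e-06). The first of these calls was lost in 1 of 44 alternatives and the last in 2. Aldh7a1, another aldehyde dehydrogenase, was 286.8 CPM in the median VISp mouse, 90.5 to 192.1 in MB/HB and 268.5 to 272.2 in CBX, and changed by -1.19 in MB/HB (adjusted p = 4.75e-05).

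Between CBX and VISp, where 11.8% of all genes were called, 2 of 7 putrescine-route genes were higher, 1 of 4 gamma-hydroxybutyrate genes was higher (Akr1a1, an aldehyde reductase, 0.82, limma adjusted p = 0.0348) and 1 lower, and 1 of 12 mitochondrial partners was higher (Suclg1). Akr1a1 missed the threshold without either CBX mouse and on AB plates alone. Between CBX and MB/HB, where 9.04% of all genes were called, 1 putrescine-route gene was higher (Aldh7a1, 1.17, adjusted p = 0.0132) and 1 lower (Aldh1a1, -1.03, adjusted p = 0.0462), 1 gamma-hydroxybutyrate gene was higher (Akr1a1, 1.09, adjusted p = 0.0174) and 1 lower, and 0 of 12 mitochondrial partners passed. The Aldh1a1 call was lost in 19 of 44 alternatives (adjusted p up to 0.44), and those of Aldh7a1 and Akr1a1 in 4 of 44 each, among them leaving out either CBX mouse.

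**Figure D5:**
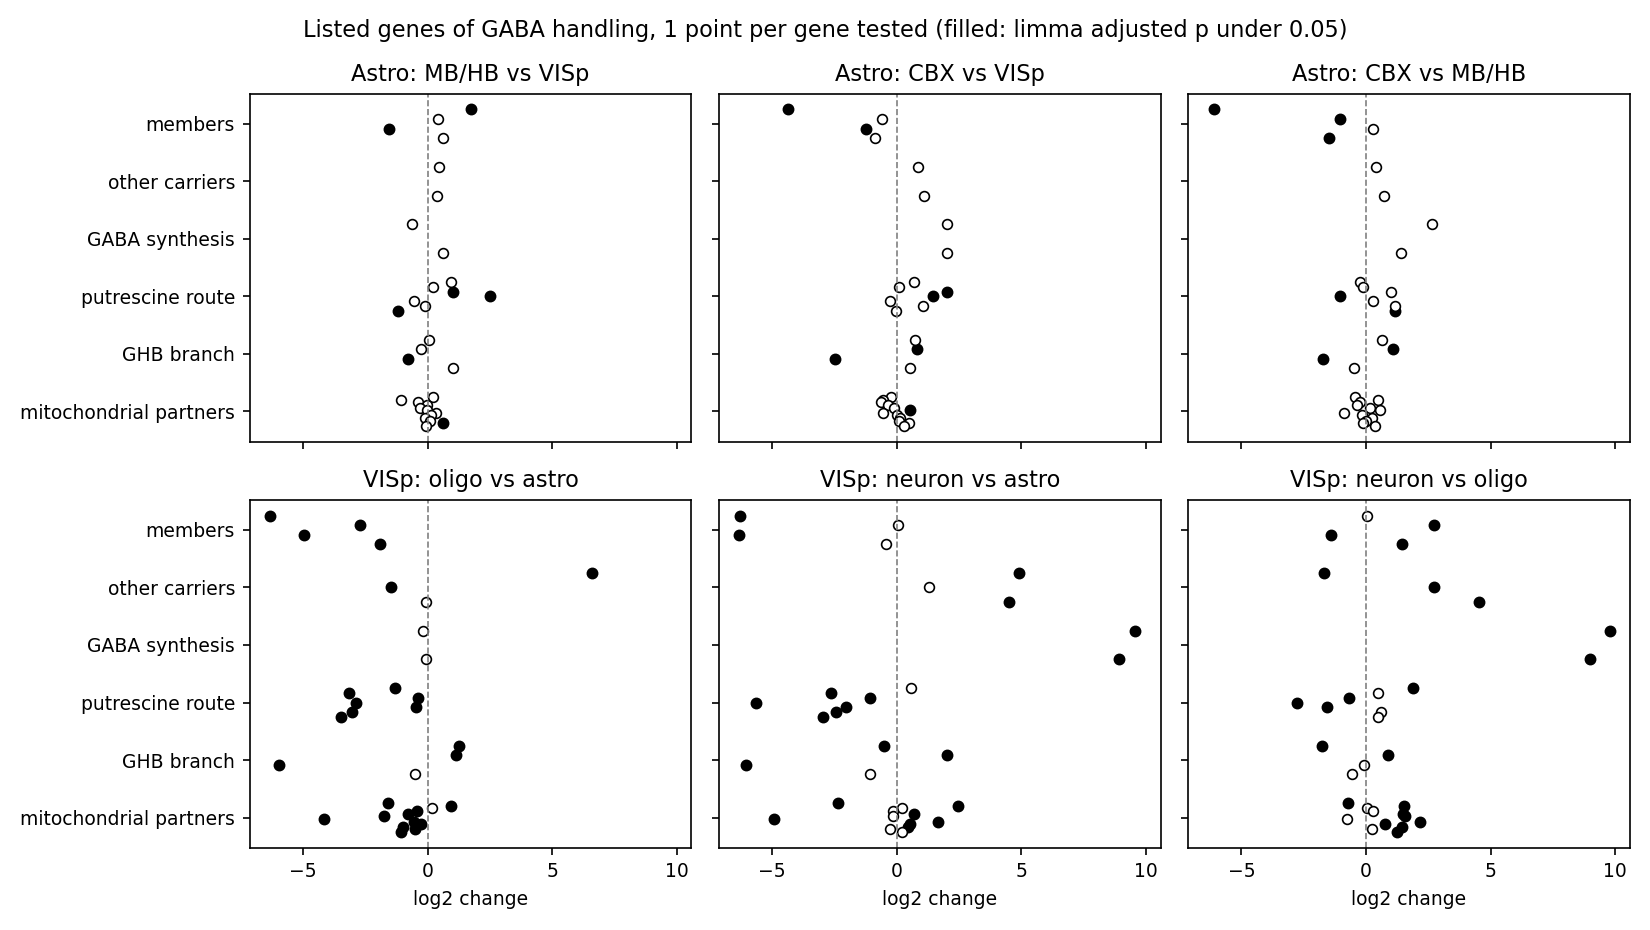
Fitted log2 changes of the members and the other listed genes of GABA handling in the 6 comparisons, with 1 point per gene tested in the row of its list (GHB, gamma-hydroxybutyrate); filled points have a limma adjusted p under 0.05. Against VISp, the filled points of the other lists reach 2.50 (Aldh1a1, MB/HB) and -2.49 (Adhfe1, CBX).

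Between the classes of VISp, all 7 of 7 putrescine-route genes and 10 of 12 mitochondrial partners were lower in oligodendrocyte-like than in astrocyte-like cells, with 1 partner higher (Got2), where 57% of all genes were called and 37.6% were lower. Of 4 gamma-hydroxybutyrate genes, 2 were higher (Akr7a5 and Akr1a1, the latter by 1.12) and 1 lower (Adhfe1), where 19.3% of all genes were higher. Neither of the 2 GABA-making enzymes passed the test. Of 3 tested other carriers, 1 was lower (Slc36a1) and 1 higher (Slc6a6). Slc6a6, the taurine carrier, was 125.8 CPM in the median oligodendrocyte-like profile (58.5 to 212.9) and 0.116 in the median astrocyte-like one (log2 change 6.59, limma adjusted p = 2.73e-31). Adhfe1 fell by 5.97, Suclg2, a subunit of succinyl-CoA ligase, by 4.17 and Aldh7a1 by 3.46.

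In neuron-like cells, Gad1 (1792 to 2272 CPM) and Gad2 (560 to 1220 CPM) were higher than in astrocyte-like cells by 9.58 and 8.92. Of the other lists, in a comparison with 26.2% of all genes higher and 17.4% lower, 2 of 3 tested carriers were higher (Slc6a6 and Slc32a1), 6 of 7 putrescine-route genes lower, and of 12 mitochondrial partners 5 higher (Got2, Dld, Sucla2, Sdha and Sdhb) and 2 lower (Glud1 and Suclg2). Of 4 gamma-hydroxybutyrate genes, 1 was higher (Akr1a1, by 2.01) and 2 lower (Akr7a5 and Adhfe1). Adhfe1 fell by 6.05 and Aldh1a1 by 5.66. Against oligodendrocyte-like cells, Slc32a1, the vesicular GABA carrier, was higher by 4.54, Gad1 by 9.78 and Gad2 by 8.996, and Aldh1a1 fell by 2.78.

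The genes most like each member over all 51 profiles were found by Pearson's r of log2(mean CPM + 1) among 2974 genes, as a description. For Slc6a11 they were Fgfr3 (0.953), Adora2b (0.947) and F3 (0.939). For Maob they were Sox9 (0.927), Pdgfrb (0.923) and Phkg1 (0.923), for Abat Ldhb (0.884), Eps8 (0.864) and Cd302 (0.863), and for Aldh5a1 Ctnnd2 (0.791), Rnf180 (0.788) and Xpr1 (0.785). These profiles mix 3 classes, so a gene that marks astrocytes scores high. Pdgfrb, among those closest to Maob, is on the list of 8 mural markers used here. That list summed to 31.6 to 98.7 CPM in VISp astrocyte-like profiles and 0.163 to 21.4 CPM in oligodendrocyte-like ones. Over the 25 astrocyte-like profiles alone, the closest genes were Slc2a1 (0.930) for Slc6a11, Cspg5 (0.896) for Maob, Trappc9 (0.665) and then Slc6a11 (0.652) for Abat, and Mmp11 (0.662) for Aldh5a1. Profiles share mice and tissues, and n is the number of profiles.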

How the data were processed

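Single-cell RNA-seq (SMARTer v4, no molecular identifiers) was deposited as 1 table of CPM; the submitters' processing notes name STAR and mm10. The authors' CPM columns of the pathway genes, and the other deposited CPM columns, entered as a score of no checked unit, were read from 5000 of 32245 gene columns; the other 27245 were not used here, and every count of genes is over these 5000, which carried a median of 23.23% of a cell's reads. Every line summed to 1000000, and 100% of positive values were whole reads within 0.001 reads, so depth was recovered.

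Cells were clustered on the 2000 most variable genes without the GABA genes (30 principal components, 15 neighbours, Leiden; leidenalg 0.10.2, Python 3.11.15) and named by markers. Clusters with over 50% of another list's markers detected stayed unnamed, and no doublet caller was run. Calling each cell by its highest list gave the same class in 2005 of 2016 cells. Mean CPM per mouse and class (at least 10 cells) was tested as log2(mean CPM + 1), a pseudocount of 1 that understates changes of low genes, with limma 3.58.1 (R 4.3.3, intensity trend, two-sided), on genes that reached 1 CPM in 2 or more profiles, with Benjamini-Hochberg adjustment at 0.05; the script was tested on simulated data. p-values measure the spread between mice. In the fit by tissue the 3 tissues shared 1 estimate of that spread, and in the fit by class the 3 VISp classes did. Most profiles behind it are of VISp astrocyte-like or oligodendrocyte-like cells, so it is not the spread of the CBX or neuron-like mice themselves. Intervals on shares are exact (Clopper-Pearson, 95%), and a count of 0 allows 3 cells; both cover counting error only. Other alternatives were voom on recovered reads, pseudocounts, filters, scalings, plates and leaving out each mouse.

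All 5 members were named in every comparison, and of the other listed genes up to 4 past the threshold with the largest change; 1 other gene is not reported here. The members and lists were chosen with earlier results of these data known.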

Additional observations from a re-analysis of the deposited data

Results flagged for a closer look

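The 5 members were looked at in the 1 group of 4 mice, MB/HB astrocyte-like cells, and for 2 of them the highest mouse stood apart from the other 3. Chance alone flags about 1 in 20 groups, but these genes share their mice, and with 3 values at 0 any read stands apart. Aldh5a1 in MB/HB astrocyte-like cells was 100.9 CPM in eHGT_381h MouseID-615516, against 61.4 to 65.6 CPM in the others. Without that mouse the log2 change from VISp was 0.46, against 0.63 with it. Slc6a13 in the same cells was 0.1035 CPM in eHGT_381h MouseID-651222, which is 1 read in 1 cell, and 0 in the others.

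The 24 cells of unnamed clusters, from 13 mice and with a median of 391903 reads, entered no comparison. A read of Slc6a11 was found in 20.83% of them, of Abat in 75%, of Maob in 25% and of Aldh5a1 in 33.33%, where a count of 0 would allow up to 12.5%. The mean levels were 13.9, 83.95, 16.4 and 15.6 CPM.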

How the results depend on the processing

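Slc6a11 and Maob between MB/HB and VISp kept direction and call in all 44 alternatives (1.51 to 1.96 and -2.88 to -0.94), and so did all 4 tested members between oligodendrocyte-like and astrocyte-like cells in 60. Beside 2 members called between CBX and VISp, 1 was called with log2 values averaged over cells, with voom and in 1 fit over all tissues and classes, and 1 to 2 with a mouse left out (1 without CBX MouseID-651221). Beside 3 between CBX and MB/HB, 1 was called with log2 values averaged, summed reads, voom, AB plates, 1 fit over all, and eHGT_381h mice only, and 1 to 3 with a mouse left out (1 without either CBX mouse, MouseID-615516 or MouseID-651228). Between neuron-like and astrocyte-like cells, 4 in place of 2 were called with log2 values averaged. Between neuron-like and oligodendrocyte-like cells, 1 in place of 3 was called with voom and without cells holding other markers, and 1 to 3 with a mouse left out (1 without MouseID-638254 or MouseID-651227). Directions that turned were all of values uncalled in the main setting, except for Maob between neuron-like and oligodendrocyte-like cells, 0.041 with log2 values averaged. The others were Maob between CBX and MB/HB (-0.31, MGT_E160m only), Abat between neuron-like and astrocyte-like cells (-0.12 with size factors, -0.12 to 0.25 with a mouse left out), Aldh5a1 there (1.80, log2 averaged), and Slc6a11 between neuron-like and oligodendrocyte-like cells (-0.068 with a pseudocount of 5, -0.15 with size factors, -0.20 on AB plates, -0.094 with the plate as covariate, -0.40 thinned, -0.51 to 0.24 with a mouse left out). The turned value of Aldh5a1 between neuron-like and astrocyte-like cells was itself called in its setting. The cause of the turns was not tested. Unthinned, median shares over mice were 73.7% for Abat in VISp astrocyte-like cells (63.2% thinned), 32.2% for Abat in oligodendrocyte-like cells (21.2%), 15.4% for Slc6a11 (4.76%) and 84.6% for Aldh5a1 (52.4%) in neuron-like cells and 26.3% for Slc6a11 in CBX (14.4%).

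Over all genes, log2 values averaged over cells called 37.9% of the 1647 genes tested between CBX and VISp in place of 11.8% of 2753, and 39% between CBX and MB/HB in place of 9.04%. They moved the share of higher calls to 82.4% (from 47.2%) and 87.7% (from 43.8%), and the median change of all genes to 0.39 and 0.60. Without CBX MouseID-614198, 6.72% and 4.97% of genes were called in these comparisons, and without MouseID-651221 it was 5.63% and 3.77%. With the mouse as replicate block (correlation 0.0303), 1646, 1265 and 1241 genes were called between classes beside 1646, 1260 and 1238, and no member's call changed. Naming clusters by ratio gave no MB/HB value. CBX rests on 2 mice of 1 vector and neuron-like profiles on 3 mice, which limits both.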

Other observations

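MB/HB neuron-like cells, too few for a comparison, had Abat reads in 9 of 9 GABAergic cells of 4 mice (of which 6 held a Gad1 read and the others were called on Gad2 alone; mean 185.4 CPM, exact 95% interval of the share 66.4 to 100%) and in 4 of 6 glutamatergic cells of 1 mouse (70.97 CPM). The 8 MB/HB oligodendrocyte-like cells came from 1 mouse, with an Abat read in 0 of 8, which allows a share of up to 37.5%, and a Maob read in 3 of 8.

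Cluster 9 of the VISp astrocyte-like cells held at least 5 cells beside clusters 1 and 3 in 2 mice. In both mice Abat was higher in cluster 9 (median 447.2 CPM, against 224.9 in cluster 1 and 277.2 in cluster 3), and Maob was lower (215.4 CPM, against 304.2 and 521.04). Gja1, an astrocyte marker, was also lower in cluster 9 (1552 CPM, against 3028 and 2478), and by the ratio of mean CPM its leading genes held 0 astrocyte markers and 3 of the mural list (Acta2, Higd1b and Tagln). No test was made with 2 mice.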
